A study of Homo sapiens with 9 samples.

Results

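LAMB3 and 6 genes near it on the long arm of chromosome 1 (1q32) were followed in nascent RNA of the pancreatic ductal carcinoma line PANC-1. The members were taken by symbol from a 2 Mb window of the chromosome that ends at 210 Mb: LAMB3, TRAF3IP3, G0S2, HSD11B1, CAMK1G, MIR205HG and PLXNA2, 7 of the 57733 genes in the tables and 7 of the 29 genes whose bodies overlap that window. LAMB3 and PLXNA2 were selected on their measured levels in the clones against the control line. The other members were taken by position, with their values known. All values of the members in that contrast are therefore given as a description without a test. The question is whether the region moves together in the clones.

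WT is the control PANC-1 line, which received no guide RNA. KO C22 and KO C28 are clones, 1 each, made with CRISPR/Cas9 aimed at KDM6A (UTX), a histone demethylase that removes a Polycomb mark. In Bru-seq, cells of all lines took up 2 mM bromouridine for 30 min and were lysed with a chase of 0 h, so that the captured RNA is RNA just made. BruUV-seq cells also received 100 J/m2 of UV light, which stops polymerases along genes. Each line has 2 Bru-seq libraries and 1 BruUV-seq library, 9 in all. The labels do not say whether replicates were separate cultures, so the spread behind each p-value is that between libraries and may be technical. In bulk RNA, more cells that transcribe a gene and more transcription per cell cannot be told apart.

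Laminins are three-chain proteins of basement membranes. LAMB3 encodes the beta-3 chain, which is known from a single trimer, laminin-332, where LAMA3 gives the alpha chain. Epithelial cells hold on to laminin-332 through the integrins alpha-6 beta-4, in hemidesmosomes, and alpha-3 beta-1. The neighbours have other roles: PLXNA2 is a receptor for semaphorins, G0S2 inhibits the triglyceride lipase ATGL, HSD11B1 turns cortisone into cortisol, CAMK1G is a calcium/calmodulin-dependent kinase, TRAF3IP3 is chiefly known from lymphocytes, and MIR205HG is the host transcript of miR-205, a microRNA of stratified epithelia.

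The libraries held 5.643 to 31.13 M estimated reads in genes. Bru-seq KO C28 replicate 2 stood apart: it was the shallowest, 46.5% of its reads lay outside genes against 9.93% to 20.0% elsewhere, and its median correlation with the other libraries was 0.692 against 0.846 or more. The 9 markers of leukocytes, endothelium, acinar cells and islets summed to 23.3 CPM (counts scaled to library size, with TMM factors) in it against 0.536 to 4.05 in the other libraries, with 3 of 9 at 0 against 4 to 7. The 6 ductal and epithelial markers summed to 2558 CPM there, 1289 in BruUV-seq KO C28 and 106 to 575 elsewhere, and none was at 0 in any library. KDM6A was read in every library, at 317 and 276 CPM in the WT Bru-seq libraries, 259 and 430 in those of KO C22, 325 and 81.7 in those of KO C28, and 201 (WT), 123 (KO C22) and 191 (KO C28) with UV light, the order used below. Its log2 fold change was -0.05 (SE 0.52) for KO C22 and -0.36 (SE 0.52) for KO C28 (0.13 without its replicate 2), and such sums cannot show a small edit. Log2 fold changes for KO C28 that turned in sign or moved by over 1.5 times without replicate 2 are given both ways below. Those of CAMKK2 and CR1 are given from a single fit, named with them. The part of that library's other differences in the results was not tested.

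LAMB3 lies at chromosome 1, 209614870 to 209652466 on the minus strand of the tables' build, GRCh38 (ENSG00000196878.14). It held 57 to 68 reads in each WT library and up to 1457 in a clone library. Scaled for depth, WT Bru-seq stood at 2.57 and 2.79 CPM, KO C22 at 42.8 and 65.1, and KO C28 at 20.4 and 31.6. With UV light WT stood at 2.71 CPM, KO C22 at 50.8 and KO C28 at 51.6. Every clone library was above every WT library, with a wide gap between 2.79 CPM and 20.4 CPM.

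The mean of LAMB3 was 2.68 ± 0.154 CPM in WT, 54.0 ± 15.7 in KO C22 and 26.0 ± 7.92 in KO C28 (SD, n = 2 Bru-seq libraries each). The ratio of means to WT was 20.2 for KO C22 and 9.72 for KO C28. In the single BruUV-seq libraries the ratios were 18.8 and 19.1. In the joint fit of all 9 libraries the log2 fold change was 4.30 (SE 0.39) for KO C22 and 3.63 (SE 0.39) for KO C28. Without Bru-seq KO C28 replicate 2 the KO C28 value was 3.66 (SE 0.40).

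The clones can be tested against each other, since that contrast did not choose the gene. KO C28 minus KO C22 was -0.67 on the log2 scale (SE 0.39, 95% interval -1.52 to 0.17, edgeR adjusted p = 0.781). Over both assays together the difference did not exceed the spread. This fit does not test Bru-seq alone, where the KO C22 libraries lay above those of KO C28. The interval still allows either clone to be the higher. The clone effect by assay, an interaction over both clones, had an edgeR p of 0.495 before adjustment and 1 after.

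Sequence around the starts of LAMB3 is shown because the gene was low in WT and high in both clones. RefSeq (GRCh38.p14) gives 3 starts for LAMB3. The 250 bases before starts 1 and 3 follow, on the gene's strand, 5′ to 3′. Capitals mark matches to a fixed set of motifs read on both strands: AP-1 (TGANTCA), TEAD (GGAATG), the E-box bound by ZEB and SNAI factors (CACCTG), SP1 (GGGCGG) and the TATA box (TATAAA). Start 1 has the window chr1:209652426-209652675 and start 3 chr1:209651375-209651624.
LAMB3 start 1: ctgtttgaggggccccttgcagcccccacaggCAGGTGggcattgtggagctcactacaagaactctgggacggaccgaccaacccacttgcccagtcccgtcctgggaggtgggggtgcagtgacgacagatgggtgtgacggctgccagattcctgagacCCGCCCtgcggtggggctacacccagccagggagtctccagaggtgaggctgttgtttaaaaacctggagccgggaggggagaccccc
LAMB3 start 3: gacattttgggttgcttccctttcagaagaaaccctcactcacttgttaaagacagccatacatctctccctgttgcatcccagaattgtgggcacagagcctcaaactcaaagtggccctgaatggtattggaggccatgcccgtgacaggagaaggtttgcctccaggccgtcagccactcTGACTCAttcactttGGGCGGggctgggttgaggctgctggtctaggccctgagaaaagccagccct
The window of start 1 holds 1 E-box and 1 SP1 match, which begin 218 and 88 bases before the start. That of start 3 holds 1 AP-1 and 1 SP1 match, 67 and 52 bases before it. Over one start each of 27305 genes, windows of this length hold AP-1 letters in 6.6%, TEAD in 11.9%, the E-box in 17.5%, SP1 in 42.3% and TATA in 11.1%. A match is only a run of letters, and the reads are summed over the gene body, so the data do not say which start was used.

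PLXNA2 lies 1371 kb from LAMB3, at 208022242 to 208244320 on the minus strand, a gene of 222079 bp. It gave 15 and 44 reads in the WT Bru-seq libraries, 358 and 1046 in those of KO C22, and 154 and 138 in those of KO C28. BruUV-seq gave 35, 197 and 224 reads in the same order of lines. All clone libraries were again above all WT libraries, with 1.8 CPM as the highest in WT and 9.48 as the lowest in a clone.

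In Bru-seq PLXNA2 stood at 1.24 ± 0.797 CPM in WT, 32.1 ± 20.7 in KO C22 and 15.3 ± 8.28 in KO C28 (SD, n = 2), ratios to WT of 25.9 and 12.4. The BruUV-seq ratios were 10.2 and 8.18. These ratios rest on a low WT level, 0.0026 and 0.00662 RPKM in Bru-seq and 0.00619 with UV light. The 9 markers of other cells, pooled over their length, stood at 0.0030, 0.0035 and 0.0041 RPKM in the same libraries. Log2 fold changes from the joint fit were 4.25 (SE 0.60) for KO C22 and 3.39 (SE 0.60) for KO C28, and 3.11 (SE 0.58) in KO C28 without its replicate 2. KO C28 minus KO C22 was -0.86 (SE 0.58, 95% interval -2.14 to 0.43, edgeR adjusted p = 0.781), a difference within the spread. Per length, PLXNA2 was the weaker gene: in Bru-seq KO C22 it had a mean of 0.103 RPKM and LAMB3 1.07 RPKM.

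The window before the PLXNA2 start, chr1:208244385-208244634, is shown beside those of LAMB3, for comparison of genes that were high in the same clones.
PLXNA2: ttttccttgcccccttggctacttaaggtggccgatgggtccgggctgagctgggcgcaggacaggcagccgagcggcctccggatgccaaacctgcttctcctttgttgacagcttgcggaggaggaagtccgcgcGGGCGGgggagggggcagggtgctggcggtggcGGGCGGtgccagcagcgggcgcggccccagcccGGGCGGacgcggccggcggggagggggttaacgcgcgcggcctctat
It holds 3 SP1 matches, 113, 80 and 47 bases before the start, and none of the other 4 motifs. Its share of G and C was 72.4%, against 64% and 54% in the LAMB3 windows shown.

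G0S2 is a gene of 969 bp at 209675420 to 209676388 on the plus strand. It gave 23 and 7 reads in the WT Bru-seq libraries, 155 and 50 in those of KO C22, and 37 and 147 in those of KO C28. BruUV-seq gave 18, 117 and 203 reads in the same order of lines. Its highest WT level, 1.04 CPM, lay below its lowest clone level, 2.25 CPM.

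Replicates of G0S2 differed widely, with 4.91 ± 3.76 CPM in KO C22 and 12.4 ± 14.3 in KO C28 against 0.662 ± 0.530 in WT (SD, n = 2 Bru-seq libraries). The log2 fold change was 3.13 (SE 0.89) for KO C22 and 4.10 (SE 0.89) for KO C28, and 2.83 (SE 0.79) in KO C28 without its replicate 2, the library with 147 reads. KO C28 minus KO C22 was 0.98 (SE 0.87, 95% interval -0.93 to 2.88, edgeR adjusted p = 0.795). Without that library it was -0.31 (SE 0.77), so its sign rested on 1 library. The window before its start, chr1:209675162-209675411, holds none of the 5 motifs and is shown because a second transcript starts 163 bp away on the other strand.
G0S2: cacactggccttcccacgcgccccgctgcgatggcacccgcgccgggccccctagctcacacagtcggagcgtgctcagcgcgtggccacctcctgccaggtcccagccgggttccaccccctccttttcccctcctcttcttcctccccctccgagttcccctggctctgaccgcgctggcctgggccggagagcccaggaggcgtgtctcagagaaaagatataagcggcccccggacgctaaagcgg

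LAMB3, PLXNA2 and G0S2 were the 3 members that stood above all 3 WT libraries in all 6 clone libraries, as did 1.16% of the 23443 genes tested. By the edgeR quasi-likelihood test with Benjamini-Hochberg adjustment at 0.05, LAMB3 and PLXNA2 were among the 0.158% of genes called in KO C22 (37 genes), and LAMB3 among the 0.0981% called in KO C28 (23 genes). Nothing is read from these counts, because the same contrast chose the members and both comparisons use the same WT libraries.

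**Figure D1:**
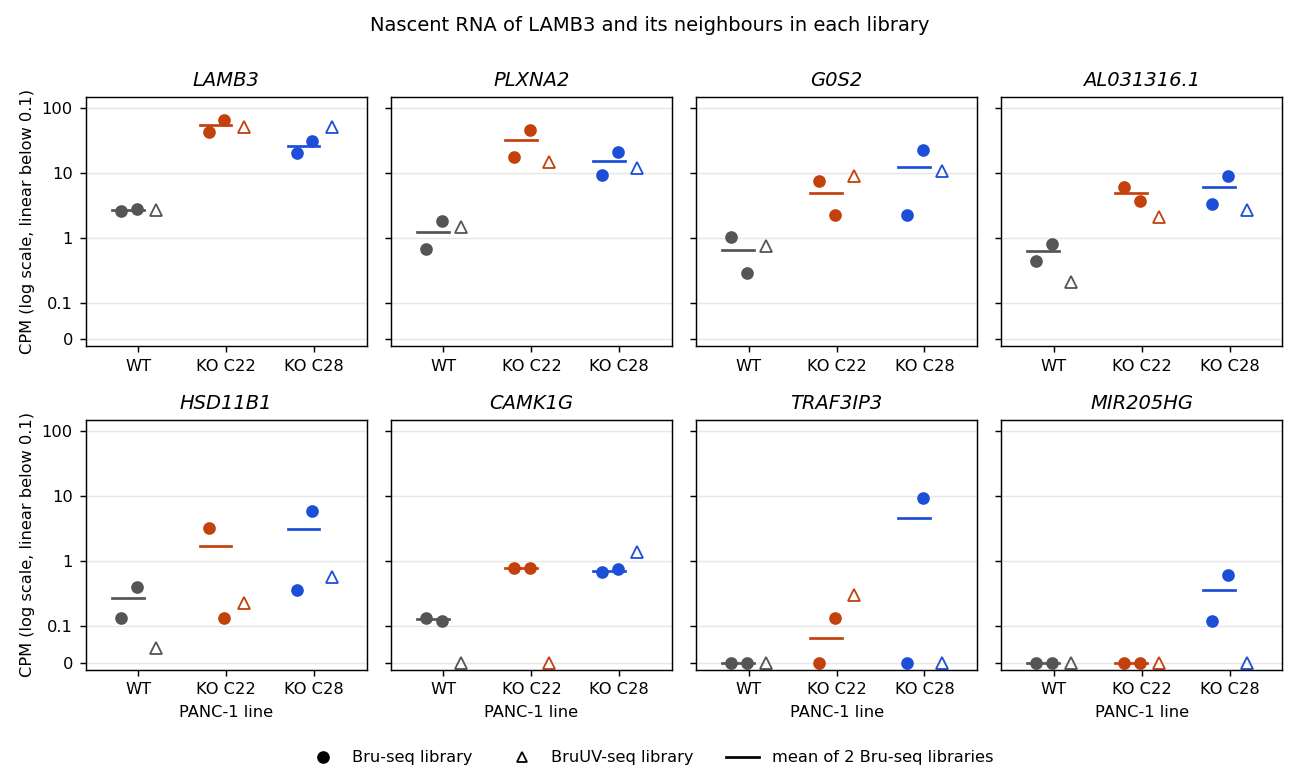
CPM (log axis, linear below 0.1) of the 7 members and of AL031316.1 by PANC-1 line; filled circles are Bru-seq libraries, open triangles BruUV-seq libraries and bars the mean of 2 Bru-seq libraries. LAMB3, PLXNA2, G0S2 and AL031316.1 separate clones from WT in every library, while HSD11B1 overlaps WT and TRAF3IP3 and MIR205HG lie at 0 in most libraries.

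HSD11B1, at 209686180 to 209734950 on the plus strand, was near the limit of detection. It gave 3 and 10 reads in the WT Bru-seq libraries, 68 and 3 in those of KO C22, and 6 and 39 in those of KO C28, and 1, 3 and 11 with UV light. The high values came from 1 library of each clone and the other Bru-seq library of each clone lay within the WT range in CPM. The log2 fold change of 2.54 (SE 1.41) in KO C22 dropped to 0.52 without its replicate 1. In KO C28 it was 3.54 (SE 1.40), and 2.23 (SE 1.54) without replicate 2.

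CAMK1G, at 209583717 to 209613938 on the plus strand, ends 932 bp from the end of LAMB3, the genes facing each other. It gave 3 and 3 reads in the WT Bru-seq libraries, 16 and 18 in those of KO C22, 11 and 5 in those of KO C28, and 0, 0 and 26 with UV light. The Bru-seq libraries of both clones lay above those of WT, at 0.793 ± 0.0160 CPM in KO C22 and 0.722 ± 0.0641 in KO C28 against 0.129 ± 0.00868 (SD, n = 2). BruUV-seq KO C22 was at 0 like BruUV-seq WT, which allows up to 0.227 CPM there. Log2 fold changes were 2.44 (SE 1.67) and 4.14 (SE 1.64), and 5.07 (SE 1.68) in KO C28 without replicate 2.

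TRAF3IP3, at 209756032 to 209782320 on the plus strand, did not pass the filter on low counts. Of its 68 reads, 61 came from Bru-seq KO C28 replicate 2, 3 from Bru-seq KO C22 replicate 2 and 4 from BruUV-seq KO C22, and the other 6 libraries were at 0. In that KO C28 library it stood at 0.22 RPKM, and the pooled markers of other cells at 0.0538 RPKM against 0.00128 to 0.0135 elsewhere. TRAF3IP3 was thus read mainly in the library where the pooled markers were highest. Of the 9, CDH5, an endothelial cadherin, gave 66 reads there, PTPRC, the leukocyte antigen CD45, gave 44, and 3 were at 0. Genes that are not such markers peaked there too, such as SYT14 with 299 of its 514 reads. The part of any of these in the TRAF3IP3 value was not tested.

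MIR205HG, at 209428820 to 209432838 on the plus strand, gave 2 and 4 reads in the Bru-seq libraries of KO C28 and 0 in the other 7, where 3 reads would correspond to 0.123 to 0.227 CPM. Such limits, here and above, cover counting error only. MIR205 itself had 0 reads in all 9 libraries. The product known for repressing ZEB1 and ZEB2 is miR-205-5p, printed from RefSeq (GRCh38.p14, chr1:209432166-209432187, plus strand) with its seed, bases 2 to 8, in capitals, as the part that pairs with targets.
hsa-miR-205-5p: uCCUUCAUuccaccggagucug
ZEB1, a repressor of epithelial genes, stood at 135 to 584 CPM over the 9 libraries, while the miR-205 host was at or near 0 in all of them.

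**Figure D2:**
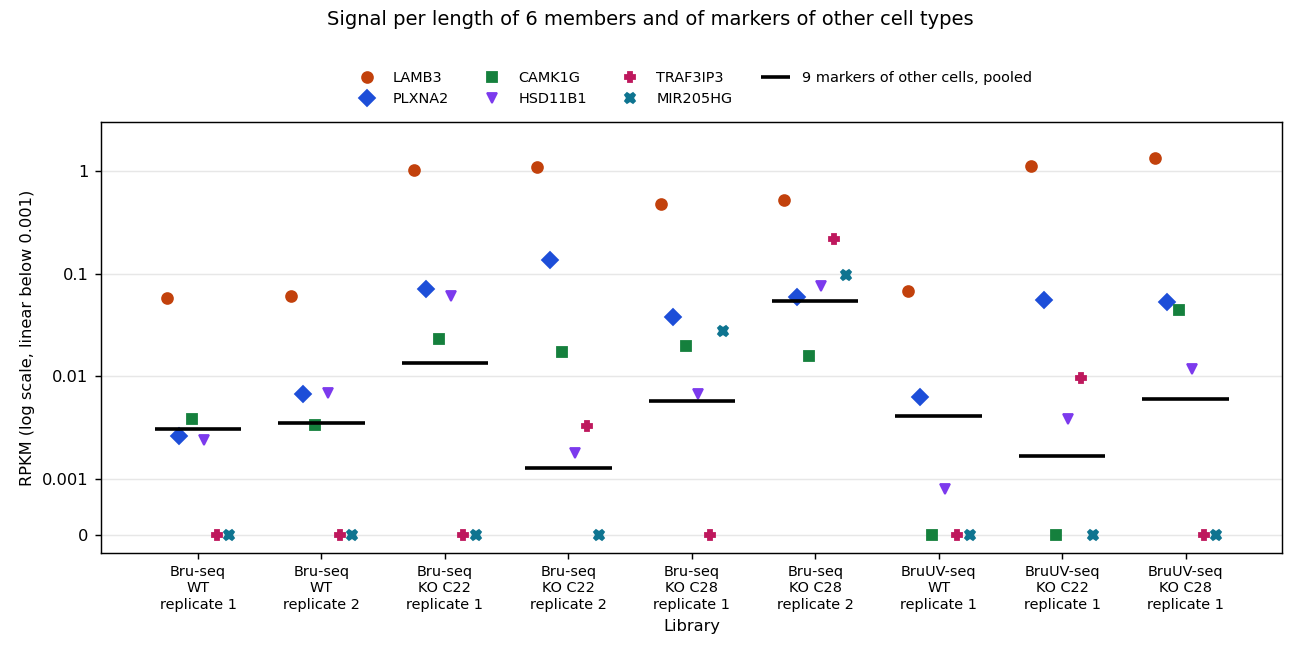
RPKM (log axis, linear below 0.001) of 6 members in each library, with a black bar for 9 markers of other cell types pooled over their summed length. LAMB3 lies above the bar in all libraries, and in Bru-seq KO C28 replicate 2 the bar reaches 0.0538 RPKM, close to PLXNA2 and HSD11B1.

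In the whole 2 Mb window, 10 of the 29 listed genes had no read in any library, 8 had reads but did not pass the filter, and 11 were tested, 5 of them members. Over the 11 the median log2 fold change was 2.44 in KO C22 (8 higher, 3 lower) and 3.44 in KO C28 (9 higher, 2 lower), where all genes tested had 0.03 and 0.08. Because members were chosen with their values known, and a gene silent in WT passes the filter only where a clone transcribes it, these medians support nothing on their own. Without Bru-seq KO C28 replicate 2 the median for KO C28 was 2.53 over 10 genes tested, and -0.0050 over all genes. Widening the window by 1 Mb on either side took the medians to 0.021 and 0.92 over 29 genes.

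Of the 6 tested genes of the window that are not members, none passed in either clone. In KO C22, 3 were higher and 3 lower, and in KO C28 4 higher and 2 lower, a description only, since the filter on low counts bears on these genes too. AL031316.1, SYT14, AL023754.1, DIEXF and C1orf74 are described in turn.

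AL031316.1 (209661366 to 209724125, minus strand) is the antisense transcript that RefSeq names HSD11B1-AS1. It begins inside HSD11B1 on the opposite strand, runs past G0S2, also opposite to it, and ends 8900 bp from the start of LAMB3. It gave 10 and 20 reads in the WT Bru-seq libraries, 125 and 82 in those of KO C22, 54 and 59 in those of KO C28, and 5, 28 and 51 with UV light. All clone libraries were above all WT libraries, as in 1.16% of the 23443 genes tested. Its log2 fold change was 3.04 (SE 0.76, edgeR adjusted p = 0.340) for KO C22 and 3.38 (SE 0.76, adjusted p = 0.253) for KO C28, and 2.99 (SE 0.69, adjusted p = 0.198) in KO C28 without replicate 2. It therefore did not pass, although its values resemble those of LAMB3.

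Since G0S2 lies inside AL031316.1, counting without strand would give AL031316.1 at least the reads of G0S2. G0S2 had more reads than AL031316.1 in 6 of the 9 libraries, which such counting does not allow. In Bru-seq WT replicate 2, KO C22 replicate 2 and KO C28 replicate 1 the counts do not settle it, and there the shares of G0S2, HSD11B1 and AL031316.1 are uncertain.

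SYT14, a synaptotagmin gene that crosses the edge of the window, gave 299 of its 514 reads in Bru-seq KO C28 replicate 2. Its log2 fold change of 4.04 (SE 1.27, edgeR adjusted p = 0.459) in KO C28 was 0.36 (SE 0.96) without that library, and in KO C22 it was 2.06 (SE 1.29). AL023754.1 had 31 of its 62 reads in the same library and lay at -0.66 (SE 1.77) for KO C22 and 3.44 (SE 1.64) for KO C28, and without that library it was not tested.

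DIEXF did not follow LAMB3. The gene, which RefSeq names UTP25 and which serves ribosome biogenesis, starts 176 kb from the start of LAMB3 and had the highest CPM of the window in WT. It stood at 63.5 and 69.4 CPM in the WT Bru-seq libraries, 64.2 and 66.7 in those of KO C22, and 67.6 and 18.1 in those of KO C28, and 36.1, 38.7 and 38.9 with UV light. Apart from the KO C28 replicate 2 value, the lines coincide within each assay. The log2 fold change was 0.02 (SE 0.44, 95% interval -0.95 to 0.99) for KO C22 and -0.37 (SE 0.44, interval -1.35 to 0.60) for KO C28 (0.10, SE 0.27, without replicate 2), so a rise of the size seen in LAMB3 lies outside both intervals.

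C1orf74 lay at -0.72 (SE 0.69) for KO C22 and 0.01 (SE 0.69) for KO C28, and at 0.35 (SE 0.62) in KO C28 without replicate 2. It did not pass in either.

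The flanks did not follow LAMB3 as blocks. Over the 25 genes tested in the 2 Mb before the window the median log2 fold change was -0.15 in KO C22 and 0.67 in KO C28, and -0.016 in KO C28 without replicate 2. Over the 14 in the 2 Mb after it the medians were 0.28 and 0.018, the latter 0.14 over 16 genes without that library. Over 947 genes tested on the rest of the long arm they were 0.027 and 0.19 (0.12 without it), and over 1224 on the short arm -0.020 and -0.07. The nearest tested genes outside the window were CD34 below, at -0.79 (SE 1.31) for KO C22 and 0.92 (SE 1.28) for KO C28, and SERTAD4 above. The sign of CD34 in KO C28 rested on replicate 2, without which it was -0.50 (SE 1.30). SERTAD4 gave 0 reads in WT Bru-seq and in all KO C28 libraries, and 21 and 19 in KO C22 Bru-seq.

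Past SERTAD4 lie HHAT, whose enzyme attaches palmitate to hedgehog proteins, and KCNH1, a potassium channel gene, both named after their values were seen. HHAT, 676 kb beyond the start of LAMB3, stood at 14.4 and 12.4 CPM in the WT Bru-seq libraries, 32.8 and 84.8 in those of KO C22, 26.2 and 120.5 in those of KO C28, and 10.00, 31.1 and 31.6 with UV light. All clone libraries were above WT, as in 1.16% of the 23443 genes tested. Its log2 fold change was 1.96 (SE 0.54, edgeR adjusted p = 0.448) for KO C22 and 2.18 (SE 0.54, adjusted p = 0.321) for KO C28, and 1.40 (SE 0.43) in KO C28 without replicate 2. KCNH1 lay at 3.71 (SE 0.98, adjusted p = 0.433) and 3.73 (SE 0.98, adjusted p = 0.401), and at 2.13 (SE 0.80) in KO C28 without replicate 2. Neither passed.

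**Figure D3:**
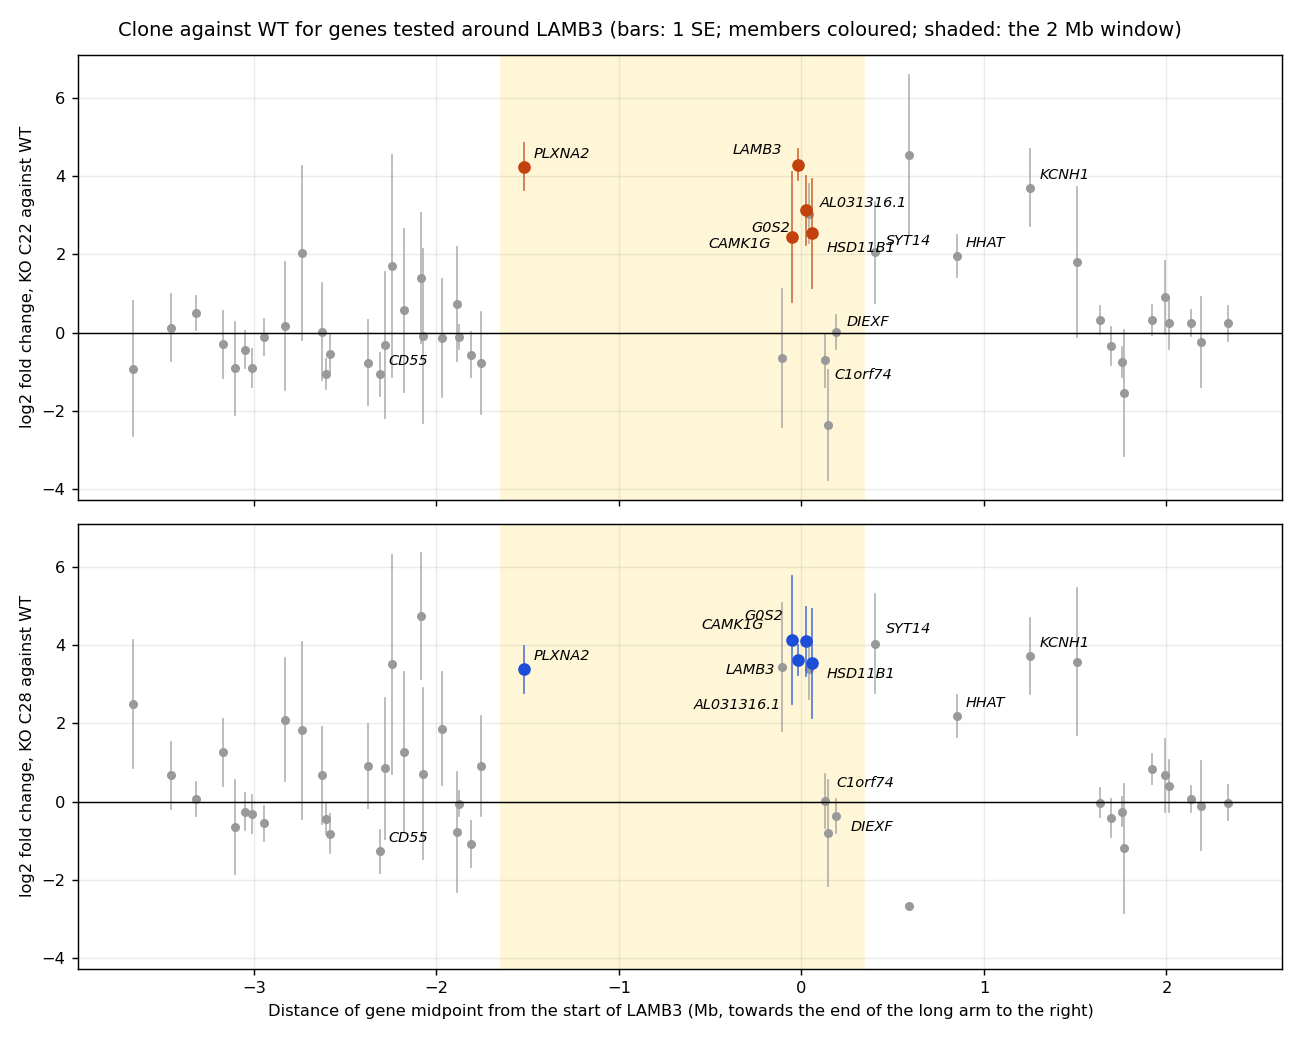
Log2 fold change of each clone against WT (1 SE bars) for genes tested around LAMB3, by distance of the gene's midpoint from the LAMB3 start in Mb; members are coloured and the 2 Mb window is shaded. High values sit at PLXNA2 and near LAMB3, with DIEXF and C1orf74 near or below 0 close by. They also occur outside the window, at KCNH1 in both clones, SERTAD4 in KO C22 (4.55, SE 2.05) and CR1 in KO C28 (4.74, SE 1.61). The CR1 value is from the fit of all libraries only. The KO C28 median of its flank went from 0.67 to -0.016 without Bru-seq KO C28 replicate 2. SERTAD4 in KO C28 has no bar because WT Bru-seq and KO C28 libraries are at 0.

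Summed over the window, transcription was 78.9 and 81.5 CPM in the WT Bru-seq libraries, 154 and 190.5 in those of KO C22, and 116 and 176 in those of KO C28. LAMB3 and PLXNA2 made up 4.11% to 8.40% of that sum in the 3 WT libraries and 25.9% to 58.7% in the 6 clone libraries. Without these genes the sum was 75.6 and 76.9 CPM in the WT Bru-seq libraries, 94.1 and 78.7 in those of KO C22, 85.7 and 124 in those of KO C28, and 45.4, 53.6 and 62.6 with UV light. Most of that remainder was DIEXF in all libraries but Bru-seq KO C28 replicate 2. Without DIEXF as well, the sum was 12.1 and 7.54 CPM in the WT Bru-seq libraries. It was 29.9 and 11.9 in those of KO C22, and 18.2 and 105 in those of KO C28. With UV light it was 9.32, 14.9 and 23.7, so 5 of 6 clone libraries lay above every WT library. This sum still holds G0S2, a member taken with its values known, and AL031316.1. In BruUV-seq KO C22 these genes made up 8.87 and 2.12 of the 14.9 CPM. They reached at most 1.04 and 0.819 CPM in a WT library. The count of libraries therefore does not describe the other genes of the window. Whether those genes rose was not tested.

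Whether the partners of LAMB3 moved with it was asked of 12 genes: the laminin-332 chains, their integrins and the hemidesmosome. All 12 were tested. LAMB3 passed in each clone, but it was chosen on this contrast, so nothing is read from its call. None of its partners passed in either clone, where 0.158% and 0.0981% of all genes were called. With LAMB3 included, the median log2 fold change was 0.96 in KO C22 and 0.51 in KO C28 (9 higher and 3 lower in each). All genes tested had 0.03 and 0.08.

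LAMA3, the alpha-3 chain, gave 99 and 97 reads in the WT Bru-seq libraries, 114 and 21 in those of KO C22, and 12 and 56 in those of KO C28, and 111, 9 and 38 with UV light. It lay at -1.14 (SE 1.00) and -0.40 (SE 1.00), and at -1.52 (SE 0.96) in KO C28 without replicate 2, and none of these values passed. In CPM, WT lay within the range of each clone in Bru-seq and above both clones with UV light.

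ITGB4, the beta-4 integrin of hemidesmosomes, stood at 0.541 and 3.20 CPM in the WT Bru-seq libraries, 0.635 and 1.39 in those of KO C22, and 10.4 and 24.1 in those of KO C28, and 3.83, 8.49 and 40.6 with UV light. All KO C28 libraries lay above WT and the KO C22 libraries overlapped it. The log2 fold change in KO C28 was 3.25 (SE 0.74, edgeR adjusted p = 0.280), and 2.76 (SE 0.72) without replicate 2. Of the 6 ductal and epithelial markers, 4 lay higher and 2 lower in the same clone. KRT8, KRT18 and KRT19 lay at 1.88, 2.47 and 2.52, and at 0.59, 0.49 and 1.22 without that library. Without it KRT7 lay at 1.43, but EPCAM at -1.41 and CDH1 at -2.00. The part of these markers in the ITGB4 value was not tested.

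Of the integrins that are partners, ITGA6 lay at 0.63 (SE 0.33) for KO C22 and 0.20 (SE 0.33) for KO C28, ITGA3 at 0.38 (SE 0.43) and 0.60 (SE 0.43), and ITGB1 at -0.13 (SE 0.49) and -0.83 (SE 0.49). DST and PLEC, which tie integrins to keratin filaments, had these values: DST lay at 1.29 (SE 0.53) for KO C22 and -0.17 (SE 0.53) for KO C28 (0.14 without replicate 2), PLEC at 2.37 (SE 0.93) and 1.90 (SE 0.93). None of these passed.

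Among the 9 other laminin chains none passed in either clone, with medians of 0.19 in KO C22 and 0.80 in KO C28. The KO C28 median was 0.17 without its replicate 2. LAMB1, the most abundant beta chain, lay at 0.52 (SE 0.38) and -0.24 (SE 0.38), and LAMB2 at 0.98 (SE 0.57) and 0.82 (SE 0.58), the latter 0.17 (SE 0.52) without replicate 2.

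**Figure D4:**
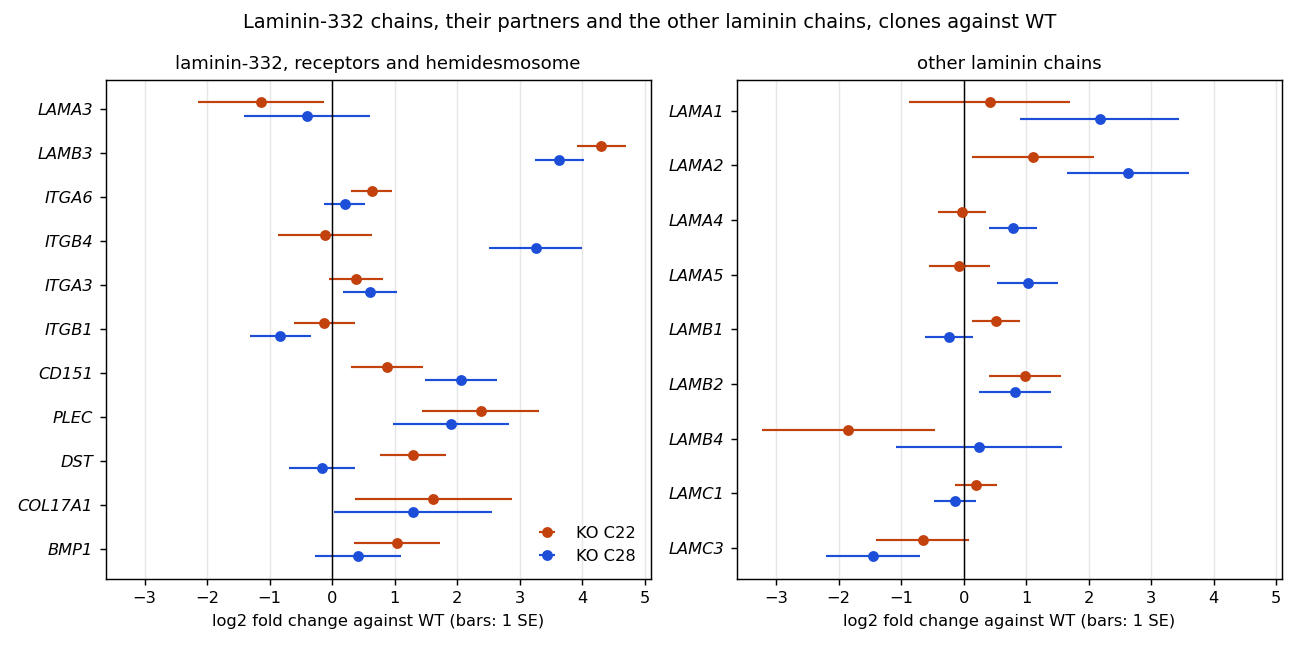
Log2 fold change against WT (1 SE bars) of 11 genes of laminin-332, its receptors and hemidesmosomes (left) and of 9 other laminin chains (right), KO C22 in orange and KO C28 in blue. LAMB3 lies at 4.30 and 3.63 while LAMA3 lies at -1.14 and -0.40.

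PLXNA2 was set beside 16 further plexins, neuropilins and semaphorins, of which all were tested and none passed in either clone. Over the 17 genes the medians were 0.68 in KO C22 (11 higher, 6 lower) and 1.08 in KO C28 (13 higher, 4 lower), and 0.19 in KO C28 without replicate 2 (10 higher, 7 lower). NRP2, a co-receptor for class 3 semaphorins, stood at 15.5 and 28.1 CPM in the WT Bru-seq libraries, 66.2 and 160 in those of KO C22, and 47.2 and 41.9 in those of KO C28, and 7.96, 59.5 and 65.8 with UV light. Every clone library exceeded every WT library, as in 1.16% of the 23443 genes tested, and NRP2 was named for its role or after its values were seen. Its log2 fold change was 2.5 (SE 0.49, edgeR adjusted p = 0.14) for KO C22 and 1.74 (SE 0.49, adjusted p = 0.442) for KO C28. Without Bru-seq KO C28 replicate 2, 3 of the 16 passed in KO C22, where 142 of the 21986 genes tested were called. They were NRP2 at 2.53 (SE 0.44, edgeR adjusted p = 0.0473), the receptor gene PLXNA4 at 2.39 (SE 0.42, adjusted p = 0.0456) and the semaphorin gene SEMA3E at 2.22 (SE 0.34, adjusted p = 0.0260). SEMA3E then also differed between the clones, with KO C28 minus KO C22 at -3.79 (SE 0.40, edgeR adjusted p = 0.0370). In the fit of all libraries PLXNA4 lay at 2.33 (SE 1.00, adjusted p = 0.927) and SEMA3E at 2.20 (SE 0.80, adjusted p = 0.755) in KO C22. The more abundant NRP1 lay at -0.05 (SE 0.50) and -0.08 (SE 0.50), and SEMA3C, a ligand, at 0.68 (SE 0.50) and -0.80 (SE 0.50). In KO C28 without replicate 2 they lay at 0.31 and -0.50.

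The pathways of the other neighbours held no gene that passed in either clone. For G0S2 these were 7 genes of lipolysis, with medians of 0.08 and 1.01; PNPLA2, which encodes ATGL, the target of G0S2, lay at 0.08 (SE 0.54) for KO C22 and 1.49 (SE 0.53, edgeR adjusted p = 0.459) for KO C28, and at 0.92 (SE 0.48) in KO C28 without replicate 2. For HSD11B1, 9 of 10 genes of glucocorticoid activation and response were tested, with medians of -0.21 and -0.31 (-0.70 without KO C28 replicate 2). These medians and those of lipolysis include HSD11B1 and G0S2 themselves. NR3C1, the glucocorticoid receptor, lay at 0.57 (SE 0.40) in each clone and at 0.91 (SE 0.32) in KO C28 without that library, and its target FKBP5 at -0.21 (SE 0.30) and -1.12 (SE 0.30, adjusted p = 0.373).

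For CAMK1G, 6 of 7 calmodulin-kinase genes were tested, CAMK1G itself among them. Their median was 0.76 in KO C22 (3 higher, 3 lower) and 1.36 in KO C28 (4 higher, 2 lower). Without KO C28 replicate 2 the latter was 0.47. The paralogue CAMK1D lay at 1.55 (SE 0.50) and 1.45 (SE 0.50). In the fit without that library CAMK1D lay at 1.53 (SE 0.43) and 1.77 (SE 0.48), and CAMKK2, of the same list, at -0.33 (SE 0.27) and 0.03 (SE 0.31). With all libraries the Bru-seq means of CAMKK2 were 39.9 CPM in WT, 28.7 in KO C22 and 28.6 in KO C28. The single BruUV-seq libraries held 65.7, 60.9 and 86.4 CPM. For MIR205HG, 6 of 7 genes around p63 and miR-205 were tested, with medians of -0.41 and 0.23 (-0.011 without it). TP63, an activator of MIR205HG in squamous epithelia, lay at 0.32 (SE 0.91) and 1.93 (SE 0.90). Of its reads 200 came from Bru-seq KO C28 replicate 2, without which the KO C28 value was 0.39 (SE 0.75). ZEB1 lay at 0.70 (SE 0.40) and -0.16 (SE 0.40), the latter 0.17 (SE 0.30) without that library.

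BruUV-seq against Bru-seq asks where along genes the signal lies, since UV light keeps polymerases from reaching distant sequence. Across genes the median log2 fold change was 0.50 for genes under 5 kb, 0.07 for 5 to 50 kb, -0.65 for 50 to 200 kb and -1.32 for genes over 200 kb. LAMB3 lay at 0.34 (SE 0.34, 95% interval -0.40 to 1.08, edgeR adjusted p = 0.544), G0S2 at 0.30 (SE 0.76; 1.00, SE 0.63, without Bru-seq KO C28 replicate 2) and AL031316.1 at -1.30 (SE 0.65). PLXNA2 lay at -0.40 (SE 0.51, interval -1.52 to 0.73), above the median of its length class, which lies inside its interval. Its 25% to 75% class range was -2.80 to -0.67. In this comparison 0.00427% of genes passed (1 gene), none of them a member. With Bru-seq KO C28 replicate 2 left out, 3305 genes passed and the members again did not, LAMB3 at 0.35 and PLXNA2 at -0.21.

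Between the clones, 0 of 23443 genes passed the edgeR test (0%), where 1420 had an unadjusted p under 0.05, and DESeq2 called 203. For the interaction of clone and assay 0 passed with edgeR (0%), 92 had an unadjusted p under 0.05, and DESeq2 called 0. The members' differences between clones had standard errors of 0.39 (LAMB3) to 1.51 (CAMK1G), so only differences of several-fold could have been seen.

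Likeness over the 9 libraries was measured by Pearson correlation of log2 CPM (prior count 2). LAMB3 and PLXNA2 correlated at 0.955. With members set aside, the genes most like LAMB3 among 11428 genes with a mean of at least 100 reads in a line lay below that value and on other chromosomes: MN1 (r = 0.947), PRICKLE2 (0.942), SPOCK1 (0.941), HHIP (0.939) and KATNAL2 (0.923). For PLXNA2, PRICKLE2 (0.975) lay above LAMB3, and FSTL1 (0.947), HIPK2 (0.944), TMEM255B (0.942) and RNF152 (0.942) below it. Within the region, r with LAMB3 was 0.847 for AL031316.1, 0.807 for G0S2, 0.792 for HHAT and 0.630 for KCNH1, but -0.19 for DIEXF and -0.37 for C1orf74. For the partner LAMA3 it was -0.44. These values describe 9 libraries that share lines, so a gene high in both clones correlates by that alone.

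**Figure D5:**
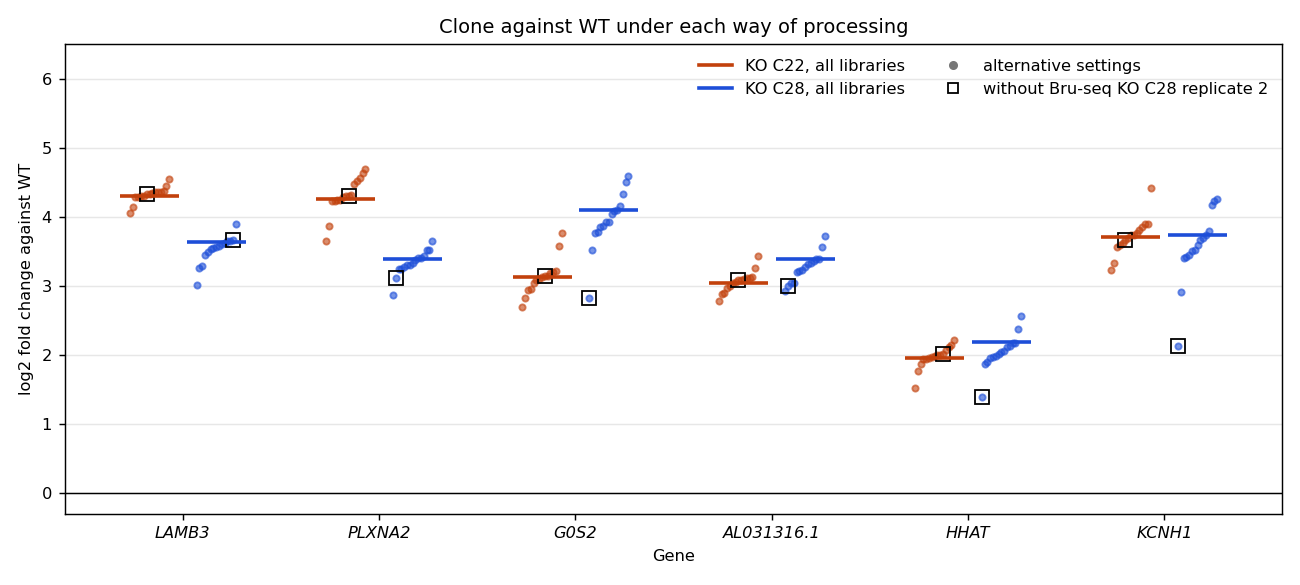
Log2 fold change against WT for 6 genes of the region, as lines for the fit of all libraries and as points for each other setting, with squares for the fit without Bru-seq KO C28 replicate 2. LAMB3 and PLXNA2 stay above 2.8 in both clones, while KCNH1 in KO C28 drops to 2.13 without that library.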

How the data were processed

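Nascent RNA was sequenced in 9 libraries of 3 PANC-1 lines. Per the submitters' processing notes, CASAVA 1.8.2, Bowtie2 2.3.3, STAR 2.5.3a and bedtools 2.16.2 were used with GRCh38 (hg38). The annotation release and the role of each tool are not given in the sources used here. The deposited tables list, per gene body, the authors' estimated count and their RPKM. Labels' protocols describe strand-specific libraries for certain samples.

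Estimated counts were rounded and fitted in edgeR 4.0.16 (R 4.3.3): filterByExpr, TMM, coefficients for line and assay over all 9 libraries, quasi-likelihood F tests, Benjamini-Hochberg adjustment over 23443 genes at 0.05. The common biological coefficient of variation was 70.9%. Standard errors are Wald errors at the fitted dispersion and 95% intervals use the fit's degrees of freedom. Levels are TMM-scaled CPM, and RPKM where genes are compared. A floor of 3 reads was used for genes at 0. Scripts were tested on simulated data.

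Members and lists were chosen with earlier results of these data known. Named genes are the members, KDM6A, the 6 other genes tested in the window, the nearest tested gene on either side, list members that passed or up to 4 per list by level, and the 5 most correlated genes that are not members. LAMA3, ITGB4, NRP2, PLXNA4, SEMA3E, PNPLA2, CAMK1D, TP63, FKBP5, LAMB2, HHAT, KCNH1 and CR1 were named for role or after values were seen. Some genes of these lists and of the window are counted but not reported here by name.

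Same-numbered Bru-seq libraries showed no pairing common to all lines. Residuals of WT correlated at 0.426 with those of KO C22 and at 0.00082 with those of KO C28, and the clones' at -0.457. The first value allows a pairing of WT and KO C22. Alternatives were other size factors, filters, prior counts and windows, Bru-seq alone, a replicate block, DESeq2 1.42.0 and leaving out each library.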

Additional observations from a re-analysis of the deposited data

How the results depend on the processing

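For LAMB3, PLXNA2, G0S2, HSD11B1, CAMK1G, AL031316.1, HHAT, KCNH1 and NRP2 the sign against WT was the same in every alternative run, 13 to 15 per gene and clone. LAMB3 ranged from 4.05 to 4.55 in KO C22 and from 3.01 to 3.90 in KO C28, PLXNA2 from 3.66 to 4.69 and 2.87 to 3.65, and G0S2 from 2.69 to 3.77 and 2.83 to 4.58. The counts of genes called depended on the setting. Without the low-count filter they were 272 (KO C22), 1100 (KO C28), 230 (KO C28 against KO C22) and 2326 (BruUV-seq against Bru-seq). With DESeq2 they were 336, 727, 203 and 4049. With Bru-seq alone 1 gene was called in each clone, LAMB3 in neither, and a mean count of 10 gave 106 for BruUV-seq against Bru-seq. Leaving out 1 library gave 3 to 142 in KO C22 and 1 to 67 in KO C28, with the highest of each without Bru-seq KO C28 replicate 2 and fewest without a WT library or BruUV-seq KO C28. It gave 0 to 18 between clones and 0 to 3305 for the assays. A replicate block gave 46 genes in KO C22 and 38 in KO C28, and PLXNA2 then passed in KO C28 (log2 fold change 3.42). A window wider by 1 Mb on either side had medians of 0.021 and 0.92; leaving out 1 library gave 1.76 to 2.78 and 2.53 to 3.81 in the 2 Mb window. Other size factors moved the median of all genes by under 0.1. Where calls moved, the cause was not tested. Depth limits HSD11B1, CAMK1G, TRAF3IP3 and MIR205HG, of which MIR205HG gave 6 reads, TRAF3IP3 68 and CAMK1G 82 over all libraries.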

Other observations

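The ductal and epithelial markers KRT8, KRT18, KRT19, KRT7, EPCAM and CDH1 were all tested and none passed. In KO C28 their median log2 fold change was 1.89 (4 higher, 2 lower), but 0.54 without Bru-seq KO C28 replicate 2, and in KO C22 it was -0.79 (1 higher, 5 lower). Mesenchymal genes for which PANC-1 is known, VIM, ZEB1 and CDH2, had medians of 0.70 in KO C22 and -0.16 in KO C28 (0.064 without that library), and none passed. Without that library CDH2 passed in KO C22, at 1.97 (SE 0.29, edgeR adjusted p = 0.0211). In that fit 142 of the 21986 genes tested were called in KO C22.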
